A study of Mus musculus with 12 samples.

Results

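Neural stem cells (NSCs) that lack Ncf1 were compared with wild-type (WT) NSCs, both untreated, over every gene with enough counts. The comparison took the 4 libraries titled as untreated Ncf1-/- cultures and the 4 titled as untreated WT cultures, which is 8 of the 12 libraries of the series used here, and kept the numbers of their titles (Ncf1-/- cultures 1 to 4 and WT cultures 9 to 12). All NSCs were primary cells from the forebrain of newborn mouse pups at passage 2. By the study's methods the cultures came from 4 WT and 4 Ncf1-/- pups, 1 pup for each culture, and the labels give no pup. The Ncf1-/- line had been backcrossed onto C57BL/6J, the strain of the WT pups, and both groups grew in the same medium with EGF and FGF. The study's methods state that Ncf1-/- cultures received vehicle during the last part of the culture period, whereas the labels list no treatment for either group. The other 4 libraries, Ncf1-/- cultures given the protein Igfbp2, entered the model to help estimate the spread. They also entered the filter on low counts and the scaling between libraries.

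Ncf1 (p47phox) is the cytosolic organizer that assembles the NADPH oxidase Nox2, an enzyme that makes superoxide. NSCs of the postnatal forebrain self-renew under EGF and FGF and can give rise to neurons, astrocytes and oligodendrocytes, and their choice between dividing and differentiating is known to respond to the redox state. Bulk cultures of this kind hold stem cells together with more committed cells, so a lower level of a marker can mean fewer cells of a type or less RNA of that gene per cell, which cannot be told apart here.

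RNA depleted of ribosomal RNA had been sequenced, and the deposited tables list for each library the number of reads that the program RSEM assigned to each of 45792 genes (the expected count). Expected counts summed to between 18216794 and 23853851 in Ncf1-/- libraries and between 18647167 and 34086554 in WT libraries, of which culture 11 was the deepest. Levels are given as counts per 1000000 counts (CPM) after scaling by trimmed mean of M values (TMM) factors, and a floor of 3 counts corresponds to between 0.086 and 0.167 CPM per library, for counting error only. Of the 45792 genes, 15706 passed the filter on low counts. Biological variation between replicates, expressed as a coefficient, was 0.25 in WT and 0.118 in Ncf1-/-, so the WT cultures differed more among themselves. WT culture 11 stood nearest to the Ncf1-/- group for 45% of the 7745 genes (49.3% of those tested) that were called, by the rule given below, and whose groups did not overlap, against 26.2%, 10.9% and 17.9% for cultures 9, 10 and 12. WT culture 12 held 6.46 CPM of the 4 Y-linked genes listed against 106.8 to 118.3 CPM in the other WT cultures and 105.3 to 115.5 CPM in Ncf1-/- cultures, and 1 sheet of the study's own code names this library as treated with apocynin while the labels and the other sheets name it untreated. Xist, the RNA of the inactive X chromosome, which is usually absent from male cells, was at 290.8 CPM in WT culture 12, at 3.87 to 5.22 CPM in the other WT cultures and at 72.3 to 87.8 CPM in all 4 Ncf1-/- cultures, which thus held it together with Y-linked RNA. In the Igfbp2-treated libraries, which the methods take from the same Ncf1-/- pups, Y-linked genes were at 7.80 to 9.18 CPM. What these values mean for the source of the libraries, and the part of sex in the differences below, was not tested. WT culture 12 was kept with the untreated WT cultures, as labelled. Without it the higher calls went from 5 to 18 in the glycolysis list, from 1 to 3 in fatty acid synthesis and from 0 to 2 among NADPH oxidase subunits, and the lower calls from 2 to 4 among mitochondrially encoded mRNAs and from 1 to 0 among p53 targets. The share of counts in mitochondrially encoded mRNAs was 0.632% ± 0.0503 in Ncf1-/- and 0.674% ± 0.127 in WT (SD, n = 4 each; two-sided exact permutation p = 0.657), and that in short structural RNAs was 11.5% ± 1.83 and 12.1% ± 1.63 (exact permutation p = 0.629).

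A gene was called when its p-value in edgeR's quasi-likelihood test, adjusted by Benjamini-Hochberg over all genes tested, was under 0.05. By this rule 8978 genes, or 57.2% of those tested, differed between the genotypes, with 4545 (28.9%) higher and 4433 (28.2%) lower in Ncf1-/-. Calls of at least 2-fold made up 10.6% of the genes tested on the higher and 10.1% on the lower side, and calls of at least 4-fold 3.01% and 3.36%. Groups did not overlap for 51.2% of the genes tested, called or not. The count of each function list is read against these shares. Without the TMM factors the median log2 fold change over all genes moved from 0.02 to 0.19, and 65.6% of the called genes were then higher in Ncf1-/-, against 50.6% with them. The medians of the hedgehog, Wnt, mitochondrially encoded and endoplasmic reticulum chaperone lists turned from below to above 0 with that scaling, and the higher calls then outnumbered the lower in the patterning, channel, polycomb, endoplasmic reticulum chaperone, imprinted, NADPH oxidase and mitochondrially encoded lists. Fold changes are on the TMM scale below, as log2 of Ncf1-/- over WT, and levels are means ± SD over 4 cultures. The standard error (SE) beside a fold change was derived from it and the F statistic of edgeR's test. Genes named with a level in each culture or a range were taken by a rule unless stated. The largest rises and falls were sought only among genes whose groups did not overlap, so their lack of overlap follows from the rule. Rac1, Nox4, Igf1 and the genes given by a log2 fold change alone are examples chosen after their values were seen. Of these examples, Insr, Aspa, Meg3, Ptch1, Zmat3, Egr1, Dnmt1, Gbx2 and Igfbp7 were no longer called in at least 1 of the fits that left out a culture, and Rac1, Insr, Meg3, Ptch1, Notch1, Zmat3 and Igfbp7 without TMM factors.

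**Figure D1:**
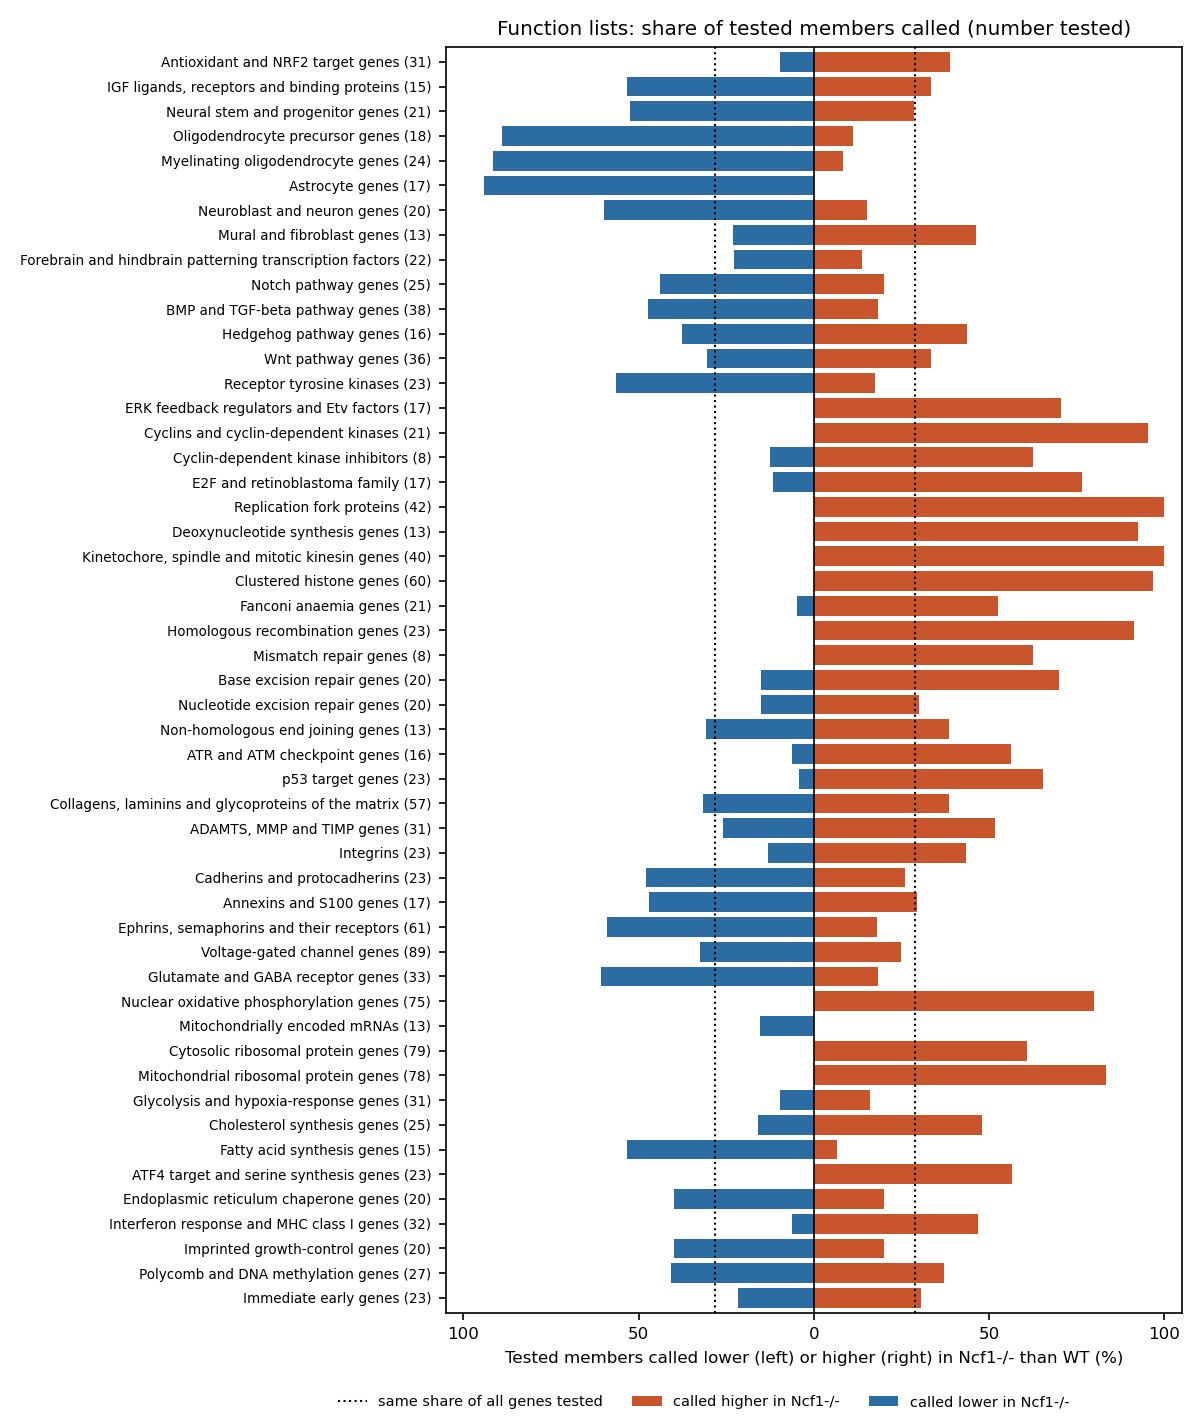
Share of the tested members of each function list that was called lower (left, blue) or higher (right, red) in Ncf1-/- than in WT NSCs, with the number of tested members in brackets and dotted lines at the shares over all genes tested (28.9% higher and 28.2% lower). The replication fork and kinetochore lists reach 100% on the higher side, and the myelin list has 22 of 24 members on the lower side.

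Ncf1 itself could not serve as a check of the genotype. Its counts were 4, 4, 2 and 2 in the Ncf1-/- libraries and 2, 3, 7 and 4 in the WT libraries, at or near the floor in both, and the gene did not pass the filter. Of the 14 NADPH oxidase subunits listed, 5 had enough counts to be tested, of which 1 fell and none rose. Cybb, the catalytic chain of Nox2, and Noxa1 had no count in any of the 8 libraries, and Cyba, the membrane partner of the Nox proteins, had between 1 and 11 counts per library. Rac1, the small GTPase that joins the assembled oxidase and has many other roles, was the 1 member called lower, a call that was lost without TMM factors (242 to 303 CPM in Ncf1-/- and 282 to 398 CPM in WT, overlapping at WT culture 11; log2 fold change −0.44 ± 0.11, edgeR adjusted p = 0.0046). For Nox4, a hydrogen peroxide-forming member of the family, the values were 1.32 to 2.32 CPM and 1.22 to 1.78 CPM (log2 fold change 0.40 ± 0.23, adjusted p = 0.15).

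Genes of the differentiated glial lineages were much lower in Ncf1-/- NSCs, whereas the genes usually taken to mark stem cells moved in both directions. Of 24 tested genes of myelinating oligodendrocytes, 22 fell and 2 rose, with a median log2 fold change of −4.25 against 0.02 over all genes. Of 18 oligodendrocyte precursor genes 16 fell and 2 rose (median −1.36), and of 17 astrocyte genes 16 fell (median −1.45). Of 21 neural stem and progenitor genes 6 rose and 11 fell (median −0.29), and of 20 neuroblast and neuron genes 3 rose and 12 fell (median −0.66).

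**Figure D2:**
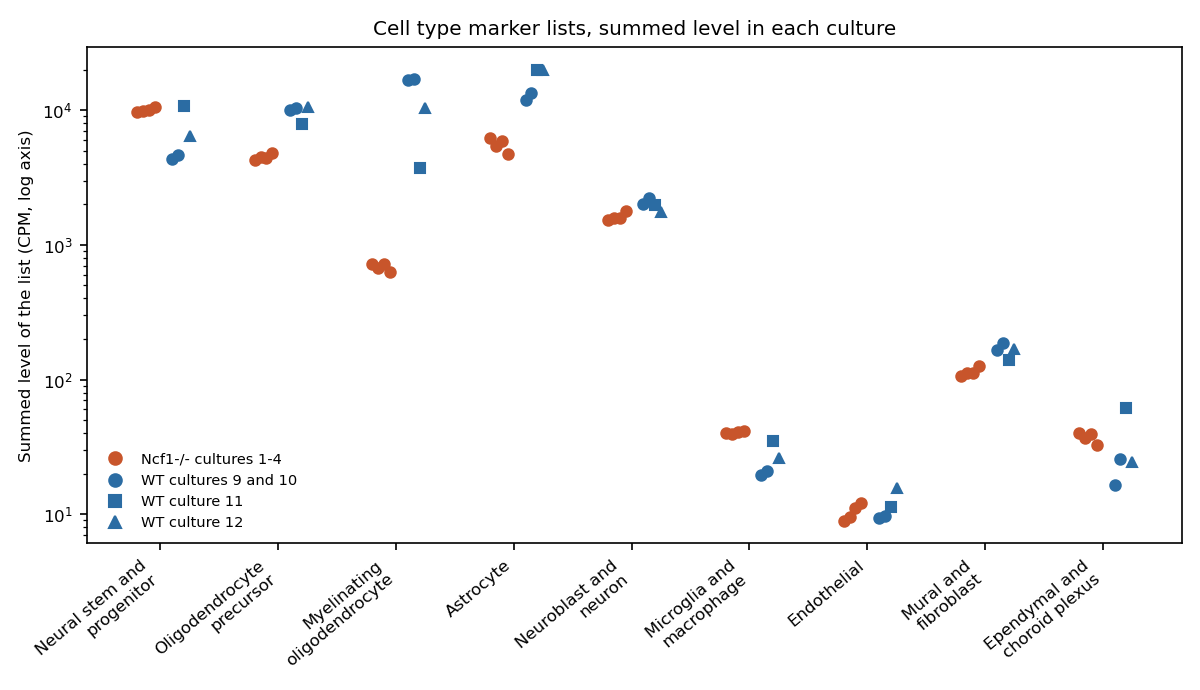
Summed level of each cell type marker list (CPM, log axis) in the 4 Ncf1-/- cultures (red) and the 4 WT cultures (blue, with culture 11 as a square and culture 12 as a triangle). The myelin list lies between 625 and 720 CPM in Ncf1-/- and between 3735 and 17113 CPM in WT, while the stem cell list overlaps because WT culture 11, at 10756 CPM, exceeds every Ncf1-/- culture.

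The myelin genes spanned the whole range from near absence to high expression. Enpp6, a choline phosphodiesterase of newly forming oligodendrocytes (GRCm38, chr8:46986887-47096762), stood at 0.697, 0.387, 0.883 and 0.336 CPM in Ncf1-/- cultures 1 to 4 and at 456, 423, 90.3 and 249.6 CPM in WT cultures 9 to 12. No Ncf1-/- culture came near the lowest WT culture (log2 fold change −9.04 ± 0.59, edgeR adjusted p = 1.2e-07). Fa2h, which makes the hydroxylated fatty acids of myelin lipids, was at 0.305, 0.484, 0.662 and 0.149 CPM against 87, 90.03, 25.6 and 78.2 CPM, again without overlap (log2 fold change −7.47 ± 0.47). Within the WT group culture 11 was the lowest for both genes, and the summed list ran from 3735 CPM in culture 11 to 17113 CPM in culture 10. Of the 2 members that rose, Trf, the iron carrier transferrin, was at 86.5 to 90.9 CPM in Ncf1-/- and 13 to 19.5 CPM in WT (log2 fold change 2.51 ± 0.13), and Aspa had a log2 fold change of 0.96 at a level near 1 CPM. Among the fits that left out a culture, Aspa kept its call only without WT culture 9.

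Among genes of earlier stages of the oligodendrocyte lineage, Olig1 and Olig2 rose and the others named here fell. Olig1 rose, from 765, 824, 884 and 710.3 CPM in WT cultures 9 to 12 to 1392, 1460.2, 1482 and 1465 CPM in Ncf1-/- cultures 1 to 4, with no overlap (log2 fold change 0.87 ± 0.09, edgeR adjusted p = 5.5e-06). Olig2, its neighbour on chromosome 16 and the factor needed for the lineage to form, was at 427 ± 31.7 CPM against 348 ± 21.8 CPM (log2 fold change 0.29 ± 0.09, adjusted p = 0.0098), a call that was lost without Ncf1-/- culture 3 (adjusted p = 0.0528). Pdgfra, the receptor through which precursors respond to PDGF, fell 4.03-fold, from 339, 433, 173 and 187 CPM to 68.2, 72.2, 68.2 and 72.5 CPM. Sox10, the factor that drives the myelin programme, had a log2 fold change of −3.39, and Gpr17, a receptor of committed precursors that are about to differentiate, fell 41.3-fold (31.8 to 48.8 CPM in Ncf1-/- and 903 to 2203 CPM in WT). Along this order of stages the fitted fall was thus larger for Gpr17 and Enpp6 than for Pdgfra, and the difference between genes was not tested.

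Astrocyte genes fell from high levels, and by less in the median than the myelin genes. Gfap, the intermediate filament of astrocytes that is also found in adult stem cells, stood at 924, 736, 869 and 512 CPM in Ncf1-/- and 3667, 4104, 7590.2 and 6536 CPM in WT cultures, 7.2-fold lower on average and without overlap (log2 fold change −2.85 ± 0.28, edgeR adjusted p = 3.0e-06). Cst3, which encodes the secreted protease inhibitor cystatin C, fell 3.24-fold, from 571 ± 32.3 CPM to 176 ± 35.1 CPM. Apoe, the main lipid carrier of the brain, was among the 6 genes that lost most CPM (1136 to 1866 against 2979 to 5328 CPM), and S100b, a calcium-binding protein of astrocytes and oligodendrocyte precursors, fell 19.2-fold (3.73 to 5.21 against 29.1 to 132 CPM). Aldh1l1, a folate enzyme widely used as a pan-astrocyte marker, was the member not called, and its WT cultures ran from 241 to 1539 CPM around the Ncf1-/- range of 1019 to 1143 CPM, and without WT culture 11 it was called higher (log2 fold change 1.42, adjusted p = 0.00121; chosen after its values were seen). WT culture 11, the lowest of its group for the summed myelin list, was the highest for the summed astrocyte list (20018 CPM, against 11929 CPM in culture 9).

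Among stem and progenitor genes, Nes, the intermediate filament nestin, rose 3.79-fold, from 119.98, 158, 447 and 118 CPM in WT cultures 9 to 12 to 696, 787, 753 and 960.4 CPM in Ncf1-/- cultures 1 to 4 (log2 fold change 1.92 ± 0.37, edgeR adjusted p = 0.00063). WT culture 11 was again the closest to Ncf1-/-, and without it the log2 fold change was 2.60. Egfr, the receptor for the EGF in the medium, followed the same order of cultures (129.8, 135, 322 and 148 CPM in WT and 426, 469.6, 419 and 613 CPM in Ncf1-/-), and Hes1, a Notch effector that keeps progenitors undifferentiated, rose 5.52-fold (25 to 31.3 against 2.18 to 10.8 CPM). Sox2, the pluripotency and neural stem cell factor, went the other way. It fell 1.96-fold, from 382, 383, 371 and 408 CPM to 199, 191, 198 and 199.6 CPM, with an SD of 3.92 CPM in Ncf1-/- (log2 fold change −0.97 ± 0.07, adjusted p = 3.4e-07). Hopx, a marker of quiescent stem cells, fell 3.22-fold (6.64 to 8.61 against 17.8 to 27.4 CPM), and Prom1, Hes5, Sox9 and Msi1 fell (log2 fold changes −1.34, −1.23, −0.95 and −0.94). Vim, the vimentin filament of progenitors and many other cells, was not called (log2 fold change 1.13 ± 0.49, adjusted p = 0.064), as WT culture 11 held 4569.5 CPM and the other WT cultures 626, 664 and 1528 CPM, beside 3848 to 4312 CPM in Ncf1-/- (chosen after its values were seen). Without WT culture 11 its log2 fold change was 2.11 (adjusted p = 1.51e-05).

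**Figure D3:**
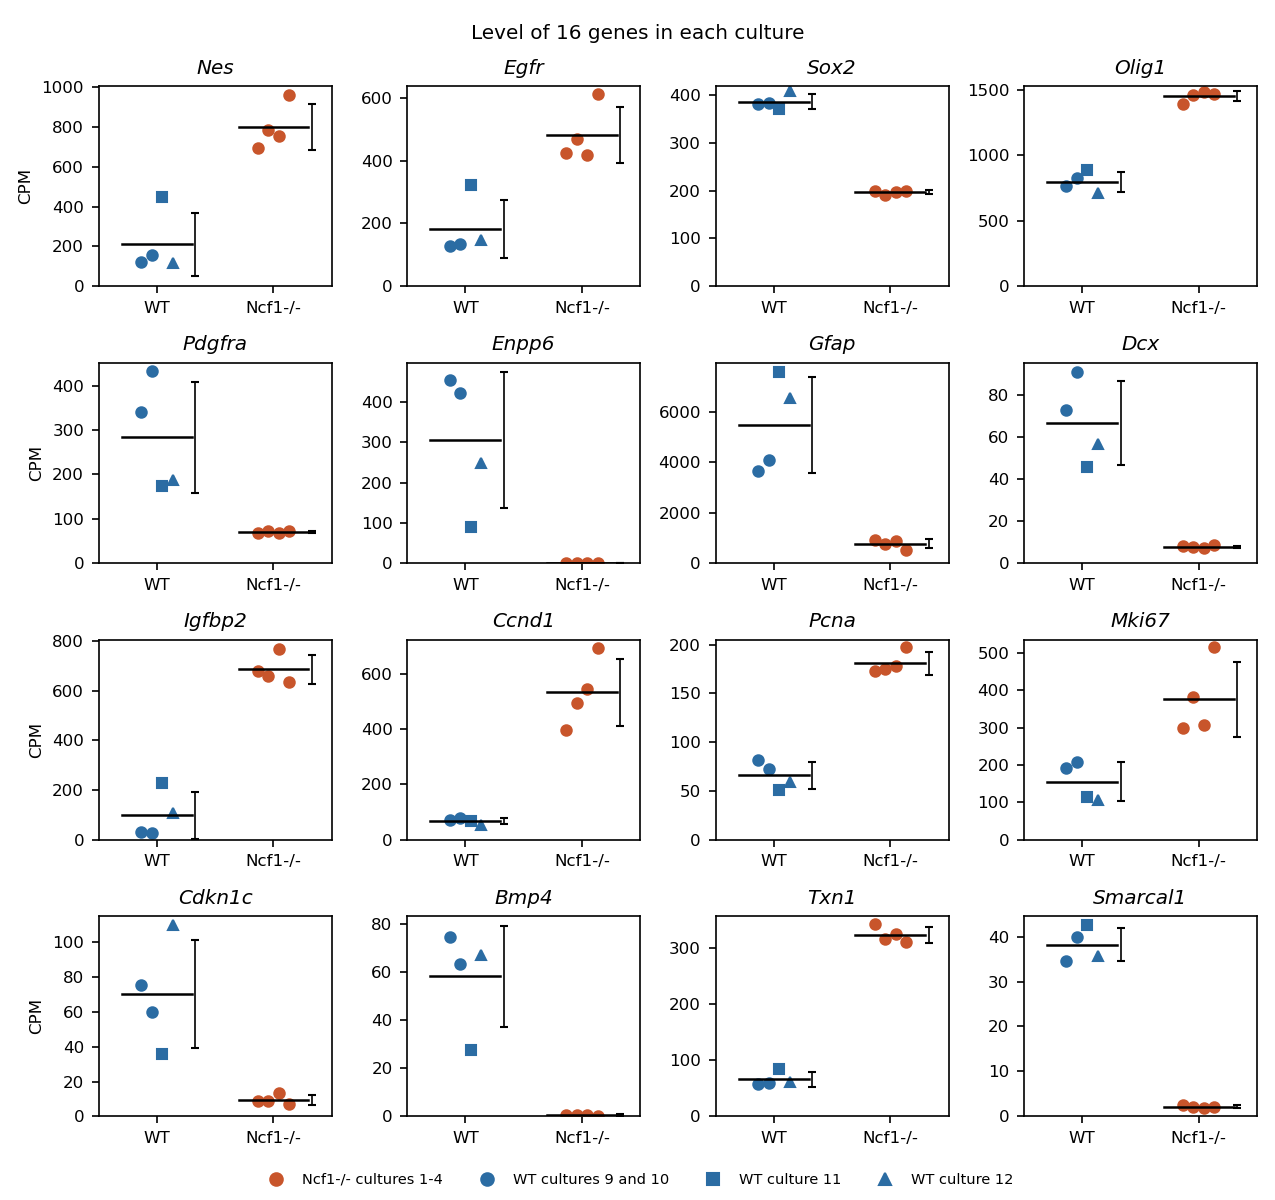
Level in CPM of 16 genes in each WT (blue) and Ncf1-/- (red) culture, with the group mean as a bar and the SD as an error bar (n = 4). WT culture 11 (square) lies closest to the Ncf1-/- cultures for Nes, Egfr and Enpp6, and Sox2 has no overlap, with 371 to 408 CPM in WT and 191 to 199.6 CPM in Ncf1-/-.

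Neuronal genes were also lower, though less uniformly. Dcx, the microtubule protein of migrating neuroblasts, fell 8.6-fold, from 73, 91.1, 45.7 and 56.7 CPM to 7.97, 7.55, 7.11 and 8.36 CPM without overlap (log2 fold change −3.10 ± 0.19, edgeR adjusted p = 8.3e-08). Elavl3, an RNA-binding protein of young neurons, fell 12.7-fold (13.4 to 14.7 against 62.5 to 288 CPM), whereas Cd24a, a surface protein of neuroblasts and of other progenitors, rose 3.11-fold (174 to 232 against 39.6 to 114 CPM). Gad1, which makes GABA in interneurons, was not called (log2 fold change 0.14 ± 0.14, adjusted p = 0.41).

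Cell types that a forebrain preparation could carry along were scarce. The 15 microglia and macrophage genes summed to 39.3 to 41.5 CPM in Ncf1-/- and 19.6 to 34.8 CPM in WT, with C1qa, C1qb and Fcrls at 0 in all 8 libraries, and of 4 tested 3 rose. The 12 endothelial genes summed to 8.93 to 12.1 CPM and 9.41 to 15.6 CPM (5 tested, 1 higher and 1 lower), and the 18 mural and fibroblast genes to 106.8 to 125 CPM and 141 to 187 CPM (13 tested, 6 higher and 3 lower), of which Pdgfrb, the PDGF receptor of pericytes, fell from 4.88 to 23.5 CPM to 0.177 to 0.485 CPM. The 12 ependymal and choroid plexus genes summed to 32.7 to 39.8 CPM and 16.6 to 61.1 CPM (4 tested, 1 lower), with Tmem212 at 0. The part of such cells in the differences above was not tested.

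The second large block was the cell cycle, where nearly the whole machinery rose together. All 42 tested replication fork proteins and all 40 tested kinetochore, spindle and mitotic kinesin genes were called higher, with medians of 1.43 and 2.01 on the log2 scale, beside 28.9% of all genes tested. Of 21 cyclins and cyclin-dependent kinases 20 rose (median 1.72), of 13 genes of deoxynucleotide synthesis 12 rose (median 0.97), and of 60 clustered histone genes 58 rose (median 1.59). Histone genes are near-identical copies that share reads, so the split between single members is uncertain.

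Known promoter elements of such genes are the E2F site of genes used in the G1 and S phases and the cell cycle genes homology region (CHR), often with CCAAT boxes, of genes used in the G2 and M phases. Promoters of 6 members are shown from 200 bases before to 20 bases after the transcription start, in the direction of the gene, from RefSeq on GRCm38.p6, because they show each kind within a called gene. Capitals mark the letters TTTCCCGC or TTTGGCGC (E2F) in the first 3 sequences, and TTTGAA (CHR) in the last 3, together with CCAAT in all, each searched on both strands, so that GCGCCAAA, GCGGGAAA and ATTGG are matches on the other strand. The windows lie at chr12:69228171-69228390 (Pole2, minus strand), chr8:75109309-75109528 (Mcm5, plus), chr5:151651189-151651408 (Rfc3, minus), chr7:135716360-135716579 (Mki67, minus), chr10:69352893-69353112 (Cdk1, minus) and chr9:70421535-70421754 (Ccnb2, minus), and no marked match overlaps another.
Pole2: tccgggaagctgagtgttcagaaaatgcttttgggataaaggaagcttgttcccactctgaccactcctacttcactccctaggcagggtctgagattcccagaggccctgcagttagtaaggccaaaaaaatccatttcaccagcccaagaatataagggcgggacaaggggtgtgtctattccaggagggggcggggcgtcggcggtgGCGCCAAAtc
Mcm5: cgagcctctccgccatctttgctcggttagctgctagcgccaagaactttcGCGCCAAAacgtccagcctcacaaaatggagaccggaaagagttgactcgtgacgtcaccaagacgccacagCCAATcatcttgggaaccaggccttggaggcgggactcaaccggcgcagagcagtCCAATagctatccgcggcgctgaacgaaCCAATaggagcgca
Rfc3: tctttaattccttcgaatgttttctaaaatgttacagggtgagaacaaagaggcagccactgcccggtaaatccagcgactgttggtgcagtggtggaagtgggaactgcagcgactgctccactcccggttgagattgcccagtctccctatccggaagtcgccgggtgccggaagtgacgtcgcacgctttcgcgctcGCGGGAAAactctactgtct
Mki67: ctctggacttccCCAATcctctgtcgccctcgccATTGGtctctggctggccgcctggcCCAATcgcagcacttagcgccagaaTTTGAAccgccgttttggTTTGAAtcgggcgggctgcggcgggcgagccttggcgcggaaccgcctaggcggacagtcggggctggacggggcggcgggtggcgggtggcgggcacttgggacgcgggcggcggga
Cdk1: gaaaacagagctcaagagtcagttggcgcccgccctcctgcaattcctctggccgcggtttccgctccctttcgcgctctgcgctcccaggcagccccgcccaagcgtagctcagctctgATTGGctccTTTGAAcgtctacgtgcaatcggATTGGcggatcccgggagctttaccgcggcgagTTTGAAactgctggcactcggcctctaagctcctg
Ccnb2: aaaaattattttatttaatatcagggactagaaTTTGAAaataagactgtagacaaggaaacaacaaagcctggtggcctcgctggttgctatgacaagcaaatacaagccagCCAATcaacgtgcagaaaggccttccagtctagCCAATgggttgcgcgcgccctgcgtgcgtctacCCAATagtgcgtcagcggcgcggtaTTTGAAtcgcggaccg

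Counted over windows from 250 bases before to 50 bases after the start, E2F letters stood in 12 of the 33 replication fork genes with a promoter in the table (36.4%), in 3 of 35 kinetochore and spindle genes (8.57%) and in 3.36% of the 11035 tested genes with a promoter. CHR letters stood in 23 of those 35 kinetochore and spindle genes (65.7%), in 6 of the 33 fork genes (18.2%) and in 14% of the tested genes. A CHR together with a CCAAT was present in 17 of 35 kinetochore and spindle genes (48.6%), 5 of 33 fork genes (15.2%) and 7.13% of the tested genes, whereas the 18 myelin genes with a promoter held neither E2F nor CHR letters. Over all 27025 genes with a promoter in the table the shares were 1.8% for E2F, 20.2% for CHR and 41.1% for CCAAT. In each share a gene counted if any of its listed promoters held the letters. Genes called higher held E2F letters in 5.31% and CHR letters in 17.1%, and none of the 11 deoxynucleotide synthesis genes with a promoter held E2F letters. These are counts of letters, and binding was not measured.

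Beside their promoter letters, the 6 genes had the following levels. Pole2, the small subunit of the leading-strand polymerase, Mcm5, a subunit of the replicative helicase, and Rfc3, a subunit of the clamp loader, rose by 1.88 ± 0.22, 1.59 ± 0.26 and 1.38 ± 0.10 on the log2 scale, with 8.63 to 11 against 1.95 to 3.99 CPM, 87.8 to 102 against 16.4 to 44.2 CPM and 27.2 to 29.2 against 9.55 to 11.6 CPM. Mki67, the coat protein of mitotic chromosomes used to count cycling cells, stood at 299, 383, 306 and 516 CPM in Ncf1-/- and 191, 208, 113 and 107 CPM in WT cultures, 2.43-fold higher and without overlap (log2 fold change 1.28 ± 0.25, edgeR adjusted p = 0.00077). Cdk1, the kinase that starts mitosis, was at 131, 133, 129.8 and 128 CPM against 31.1, 30.1, 18.4 and 17.9 CPM, and Ccnb2, one of its cyclins, at 59.6, 59.1, 55.2 and 54.8 CPM against 12.8, 11.8, 8.15 and 6.96 CPM. Within WT, cultures 9 and 10 were above cultures 11 and 12 for Mki67, Cdk1, Ccnb2 and Mcm5, and none of them reached an Ncf1-/- culture. Apart from Mki67 these genes were chosen for their promoters after their values were seen.

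**Figure D4:**
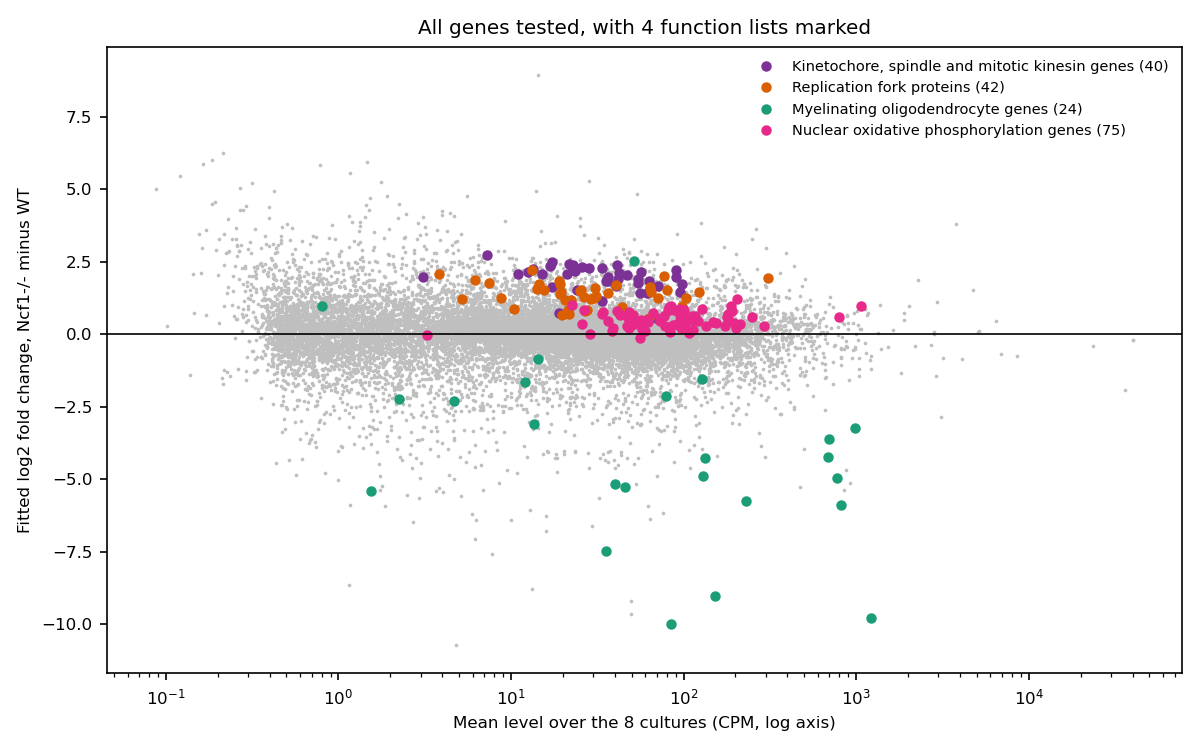
Fitted log2 fold change between Ncf1-/- and WT against the mean level over the 8 cultures (CPM, log axis) for all 15706 genes tested (grey), with 4 function lists in colour. Kinetochore and replication fork genes all lie above 0, myelin genes reach down to −9.99, and nuclear oxidative phosphorylation genes lie between −0.12 and 1.23.

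At the entry into the cycle, Ccnd1, the cyclin D1 that links growth factor signals to the cell cycle, rose 7.95-fold, from 70.2, 78.4, 68.2 and 51.3 CPM to 398, 494, 546 and 692 CPM (log2 fold change 2.99 ± 0.21, edgeR adjusted p = 2.1e-07). Of 17 genes of the E2F and retinoblastoma family 13 rose and 2 fell. Rbl1, which encodes p107 and is itself a gene of cycling cells, rose 3.56-fold (35.9 to 42 against 8.66 to 12.3 CPM). Rbl2, which encodes the p130 of resting cells, and Rb1 fell (log2 fold changes −0.22 and −0.56). The call of Rbl2 was lost without TMM factors (log2 fold change −0.04, adjusted p = 0.63).

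At the fork itself, Pcna, the sliding clamp, rose 2.75-fold, from 81.3, 72.5, 50.6 and 59.1 CPM to 173, 175, 178 and 198 CPM (log2 fold change 1.46 ± 0.14, edgeR adjusted p = 1.9e-06), and Gmnn, the licensing inhibitor geminin, 4.6-fold (20.5 to 23.7 against 3.9 to 5.96 CPM). Tk1, the thymidine kinase of the S phase, rose 7.01-fold (53.6 to 58.5 against 5.62 to 10.6 CPM), and the only deoxynucleotide gene not called was Rrm2b, the p53-dependent ribonucleotide reductase subunit (log2 fold change −0.14). In the kinetochore list Cenph, part of the inner kinetochore, rose 6.65-fold (10.7 to 14.4 against 1.28 to 2.59 CPM), and among histones Hist2h3c2 4.8-fold (392 to 462 against 53.1 to 117 CPM). The smallest rises in the fork and kinetochore lists were those of Rfc1 and Bub3, both 0.56 on the log2 scale.

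Inhibitors of cyclin-dependent kinases did not move as one group. Of 8 tested, 5 rose and 1 fell (median 0.66). Cdkn1c, an imprinted inhibitor (p57) of resting and differentiating progenitors, fell 7.43-fold, from 75.6, 59.9, 35.8 and 109.6 CPM to 8.58, 8.95, 13.2 and 7.09 CPM. Cdkn1a (p21), the inhibitor induced by p53, rose 2.71-fold, from 35, 36.2, 49.99 and 82.6 CPM to 128, 130.3, 149 and 145 CPM, again without overlap (log2 fold change 1.44 ± 0.22, edgeR adjusted p = 9.1e-05). Cdkn3, a phosphatase of Cdk1 and Cdk2 that is itself a gene of mitotic cells, rose by 2.90 ± 0.26. Cdkn1b (p27) was not called (log2 fold change 0.17, adjusted p = 0.14).

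DNA repair pathways differed in how many of their members rose. Of 23 homologous recombination genes 21 rose and none fell (median 1.30), beside 20 base excision repair genes with 14 higher and 3 lower (0.43), 21 Fanconi anaemia genes with 11 higher and 1 lower (0.48), 8 mismatch repair genes with 5 higher (0.40) and 16 ATR and ATM checkpoint genes with 9 higher and 1 lower (0.41). Of 20 nucleotide excision repair genes 6 rose and 3 fell (0.06), and of 13 non-homologous end joining genes 5 rose and 4 fell (0.21), where the count of falls dropped to 2 without Ncf1-/- culture 3 or WT culture 9. Several members, such as Exo1 and Fen1, belong to more than 1 list. The repair lists also contain genes that cycling cells express, and the part of the cell cycle in their rise was not tested.

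The rises named in the repair lists lay between 2.44-fold and 6.04-fold. Fanci and Fancd2, which form the clamp that is ubiquitinated at stalled forks, rose 6.04-fold (34.4 to 40.7 against 4.4 to 8.26 CPM) and 4.03-fold (24.4, 26.9, 24.3 and 31.2 against 8.1, 8.15, 4.02 and 6.24 CPM), and Fanca, of the core complex, 3.28-fold (17.3 to 18.7 against 4.33 to 7.29 CPM). Rad51ap1, a partner of the recombinase, rose 4.58-fold (16.2 to 19.2 against 2.38 to 5.23 CPM), Exo1, an end-resecting exonuclease, 2.79-fold (19.7 to 28.6 against 3.9 to 11.3 CPM), and Chek1, the kinase that acts below ATR, 3.51-fold (12.9 to 17.7 against 2.67 to 5.64 CPM). Ung, which removes uracil from replicated DNA, rose 3.64-fold (11.2 to 13.4 against 2.35 to 4.16 CPM), and Polq, of the end-joining route that uses microhomology, 2.44-fold (12.3 to 16.6 against 3.93 to 7.66 CPM). Fancd2 and Fanca did not overlap between the groups, beside 51.2% of all genes tested without overlap. The other genes of this paragraph were picked as the largest rises of their lists among genes without overlap. Their lack of overlap therefore follows from that choice.

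Falls in the repair lists were smaller. Ercc4, a nuclease subunit shared by the Fanconi and excision pathways, went from 28.1, 30.01, 27.1 and 28.4 CPM in WT to 19.3, 21, 18.1 and 19.1 CPM in Ncf1-/- (log2 fold change −0.55 ± 0.07, edgeR adjusted p = 2.3e-05). Parp1, the sensor of strand breaks, fell 1.71-fold (168 to 186 against 215 to 352 CPM), Trp53bp1, which steers breaks toward end joining, 1.46-fold (62 to 76.8 against 94.8 to 109 CPM), and Ercc6, of transcription-coupled repair, 1.47-fold. Hus1, of the checkpoint clamp, fell (log2 fold change −0.36), a call that was lost without TMM factors (adjusted p = 0.188). In the excision list Cetn2, a centrin that also sits in centrosomes, had the largest rise (41.1 to 46.3 against 15.2 to 19.9 CPM).

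Of 23 p53 target genes 15 rose and 1 fell, with a median of 0.60. Beside Cdkn1a, Pmaip1 (Noxa), a trigger of apoptosis, rose 3.56-fold, from 2, 2.59, 2.75 and 2.84 CPM to 7.88, 8.8, 9.27 and 10.3 CPM (log2 fold change 1.83 ± 0.13, edgeR adjusted p = 2.7e-07). Gdf15, Plk2 and Eda2r rose by 2.37, 1.64 and 1.34, whereas Mdm2, the ligase that turns p53 over, was not called (log2 fold change 0.13) and Zmat3 was the 1 gene called lower (log2 fold change −0.35), a call that was lost without WT culture 12, without TMM factors and in voom (adjusted p = 0.051, 0.316 and 0.0544).

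In the insulin-like growth factor (IGF) system binding proteins went both ways, and receptors and their adaptors fell. Its binding proteins carry IGFs outside the cell and can limit or prolong their action at the receptor Igf1r. Of 15 tested genes 5 rose and 8 fell, and the falls became 5 without TMM factors. Igfbp2 (chr1:72824503-72852474) rose from 28.9, 27.4, 228 and 108 CPM in WT cultures 9 to 12 to 678, 659.6, 768 and 636 CPM in Ncf1-/- cultures 1 to 4, 6.99-fold on average (log2 fold change 2.80 ± 0.54, edgeR adjusted p = 0.00064). WT cultures 11 and 12 were well above cultures 9 and 10 and below every Ncf1-/- culture, and without culture 11 the log2 fold change was 3.65. Igfbp4 rose 10.9-fold (152 to 178 against 6.64 to 24.8 CPM) and Igfbp3 by 1.62 on the log2 scale, while Igfbp5, the neighbour of Igfbp2 on chromosome 1, fell 1.85-fold with overlap at WT culture 11 (187 to 262 against 240.1 to 644 CPM), and Igfbp7 fell (log2 fold change −1.05). On the receptor side Igf1r, Insr, Irs1 and Irs4 fell (log2 fold changes −0.73, −0.42, −0.58 and −1.68), and the adaptor Irs2 fell 1.84-fold, from 96.4, 98.7, 115 and 167 CPM to 60.3, 67.6, 65.5 and 65.1 CPM. Of the ligands, Igf1 rose by 2.51 from a level of 0.108 to 0.459 CPM, and Igf2 was not called at 1.31, 1.31, 1.99 and 1.53 CPM against 0.318, 0.216, 4.42 and 1 CPM (log2 fold change −0.07 ± 0.64, adjusted p = 0.93). The WT mean of Igf2 rests on culture 11, and without that culture the log2 fold change was 1.60 (adjusted p = 0.0045).

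Among other growth factor pathways, most of the listed feedback genes of ERK signalling rose. Of 17 ERK feedback regulators and Etv factors 12 rose and none fell (median 1.15), and the summed list was at 1467 to 2022 CPM in Ncf1-/- against 614 to 821 CPM in WT. Both the count and the sum include Ccnd1, also a member of the cyclin list above (398 to 692 against 51.3 to 78.4 CPM). Dusp6, a phosphatase that shuts ERK off, was at 37.9, 46.2, 47.5 and 49.1 CPM against 6.55, 7.5, 13.9 and 6.79 CPM, and Etv5, a transcription factor below FGF receptors, at 315, 339, 323 and 388 CPM against 59.99, 71.8, 119 and 67.8 CPM, both chosen after their values were seen. Spry1, Spry4 and Etv4 rose by 2.25, 1.68 and 1.92, whereas Etv1 and Myc were not called (log2 fold changes −0.11 and −0.23). The receptor tyrosine kinases themselves mostly fell, 13 of 23 with 4 higher (median −0.68). Egfr rose, while Fgfr2, Fgfr3, Erbb3, Erbb4 and Ntrk2 fell (log2 fold changes −1.54, −1.43, −1.43, −2.21 and −1.58).

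Bone morphogenetic proteins (BMPs) drive astrocyte fate and hold stem cells at rest. Of 38 genes of the BMP and TGF-beta pathways 18 fell and 7 rose (median −0.32). The ligand Bmp4 fell 96.4-fold, from 74.9, 63.6, 27.6 and 67.3 CPM to 0.784, 0.581, 0.795 and 0.261 CPM (log2 fold change −6.60 ± 0.37, edgeR adjusted p = 4.2e-08), and Bmp7 rose 4.45-fold, from 7.55, 9.18, 7.17 and 9.35 CPM to 32.3, 37.9, 36.9 and 40.9 CPM. The target genes Id1, Id2, Id3 and Id4, whose products block neurogenic factors, fell (log2 fold changes −1.76, −2.26, −1.03 and −2.68). So did the inhibitory Smad6 and Smad7 (log2 fold changes −1.72 and −4.02), and the secreted antagonist Nog (−4.57).

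Notch, hedgehog and Wnt genes went both ways. Of 25 Notch genes 5 rose and 11 fell (median −0.28). Dll3, a ligand-like inhibitor of Notch, fell 3.12-fold (20.1 to 29.7 against 63.5 to 100.1 CPM), Jag2, Notch1 and Notch2 fell (log2 fold changes −2.52, −0.48 and −1.17), and of the effectors Hes5 fell (log2 fold change −1.23) while Hes1 rose by 2.41. Of 16 hedgehog genes 7 rose and 6 fell (median −0.13). Boc, a co-receptor, fell 3.01-fold (11.2 to 12.8 against 30.6 to 46.8 CPM), Gli2 and Ptch1 fell (log2 fold changes −1.10 and −0.43), and the ligand gene Dhh rose by 2.71. Evc2, of the ciliary base, was at 25 ± 2.39 CPM against 17.4 ± 4.88 CPM, a call that was lost without Ncf1-/- culture 3 or 4 or WT culture 10 (adjusted p = 0.0507, 0.0536 and 0.0548). Of 36 Wnt genes 12 rose and 11 fell (median −0.03). Nkd1, a Wnt-induced inhibitor, rose 5.84-fold, from 4.05, 5.02, 9.35 and 7.46 CPM to 38.5, 38.5, 39 and 35.2 CPM. Axin2 and Znrf3, further genes that Wnt induces, rose by 0.63 and 0.76. Tcf7l2, a transcription factor of the pathway that oligodendrocytes use during differentiation, fell 5.42-fold (37 to 41.7 against 122.9 to 256 CPM).

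Factors of the forebrain were expressed in both groups and HOX genes were not detected at a level that could be tested. Of the 39 HOX genes, which mark hindbrain and spinal cord, 27 had no count in any of the 8 libraries. Of 22 patterning factors tested 3 rose and 5 fell (median 0.06), and the rises became 6 without WT culture 11. Emx2, a dorsal telencephalic factor, rose 1.53-fold, from 16.2, 19.6, 26.6 and 22.7 CPM to 30.9, 33.8, 33.1 and 32.1 CPM (log2 fold change 0.61 ± 0.12, edgeR adjusted p = 0.00086). En2 and Gbx2, at a low level in these cultures, rose by 1.03 and 1.06. Gbx2 was not called with only the 8 libraries in the fit (adjusted p = 0.06).

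Genes of the extracellular matrix went both ways. Of 57 collagens, laminins and matrix glycoproteins 22 rose and 18 fell (median 0.11), and the summed list was lower in Ncf1-/- (1867 to 2351 CPM against 3422 to 4677 CPM). Col11a2, a fibrillar collagen, fell 26.9-fold, from 41.3, 42.4, 10.9 and 48.4 CPM to 1.48, 1.55, 1.24 and 1.04 CPM, together with Col2a1 and Col9a1 (−4.68 and −3.35), which build the same cartilage-type fibrils. Col18a1, a collagen of basement membranes, rose 11-fold, from 2.91, 1.83, 7.54 and 5.46 CPM to 42.3, 46.2, 52 and 54.3 CPM (log2 fold change 3.42 ± 0.30, edgeR adjusted p = 1.1e-06), with the basement membrane genes Col4a1, Lamb1 and Nid2 higher by 0.98, 2.14 and 1.41. Of 31 ADAMTS, MMP and TIMP genes 16 rose and 8 fell (median 0.68). Adamts14, a procollagen-processing protease, rose 37.7-fold (21.4 to 34.2 against 0.054 to 2.18 CPM), by 6.89 on the log2 scale without WT culture 11 and 4.95 with it, and the inhibitor Timp2 fell 2.28-fold (50.8 to 56.3 against 97.5 to 165 CPM).

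Adhesion and guidance receptors also moved in both directions, with falls prevailing among the guidance genes. Of 23 integrin genes, 3 of them relatives matched by name, 10 rose and 3 fell (median 0.37). Itga4 rose 5.42-fold (9.19 to 19 against 1.45 to 2.82 CPM) and Itgb7, which can pair with it, fell 47.9-fold (0.0442 to 0.387 against 2.52 to 16.7 CPM). Of 23 cadherins 6 rose and 11 fell (median −0.23), with Cdh19 3.05-fold higher (38.6 to 44.7 against 7.18 to 22.3 CPM) and the protocadherin Pcdh8 10.5-fold lower (1.27 to 2.34 against 8.38 to 28.6 CPM). Of 61 ephrins, semaphorins and their receptors 36 fell and 11 rose, with a median of −0.81 and summed levels of 2057 to 2609 CPM against 3667 to 4995 CPM. Sema4d, a semaphorin made by oligodendrocytes, fell 22.3-fold, from 129.6, 142, 29 and 96.4 CPM to 4.18, 4.35, 4.59 and 4.66 CPM, and Sema3a, a secreted repellent, rose 4.15-fold (43.3 to 70.1 against 6.42 to 23.4 CPM). Of 17 annexins and S100 genes 5 rose and 8 fell (median 0.08), and the rises became 8 without WT culture 11. Anxa3, a phospholipid-binding annexin, rose from 0.819, 0.594, 9.44 and 2.62 CPM to 92, 104, 103 and 119.8 CPM, by 4.84 on the log2 scale with WT culture 11 and 6.31 without it.

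Genes of excitability were mostly lower where they were called. Of 33 glutamate and GABA receptor genes 20 fell and 6 rose (median −0.70), and of 89 voltage-gated channel genes 29 fell and 22 rose (median −0.18), close to the shares over all genes. Grm7, a presynaptic glutamate receptor, was at 0.0436 to 0.132 CPM, at or near the floor, in Ncf1-/- and at 21.8, 24.9, 3.59 and 11.7 CPM in WT cultures. Gabrg1, a GABA receptor subunit, rose 2.04-fold, from 22.3, 18.9, 21.7 and 20.3 CPM to 44.5, 42, 40.4 and 43.1 CPM. Kcnq3, of the M-current of neurons, fell 6.17-fold (1.55 to 2.03 against 5.79 to 13.8 CPM), and Kcnip1, a partner of A-type potassium channels, rose 7.19-fold (12.4 to 13.5 against 1.46 to 2.28 CPM).

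Most nuclear genes for mitochondrial and ribosomal proteins were called higher, with small changes in the median. Of 75 nuclear genes of oxidative phosphorylation 60 rose and none fell (median 0.49), and of 78 mitochondrial ribosomal protein genes 65 rose and none fell (0.48). Of 79 cytosolic ribosomal protein genes 48 rose and none fell (0.32), or 76 rose without TMM factors, with the reservation that their processed copies in the genome can share reads. Atp5b, the catalytic chain of the ATP synthase, was at 1438, 1406, 1464 and 1401 CPM against 742, 707, 753 and 685 CPM, 1.98-fold higher (log2 fold change 0.98 ± 0.09, edgeR adjusted p = 2.1e-06), and Atp5g3, of its membrane ring, rose 2.34-fold (272 to 302 against 111 to 132 CPM). Rps27l, a p53-responsive ribosomal protein, and Mrps28 had the largest rises of their lists that met the rule (2.39-fold and 2.04-fold). The 13 mRNAs that the mitochondrial genome itself encodes did not follow, as 2 fell and none rose (median −0.02). Of these, mt-Cytb, a subunit of complex III, was at 854, 873, 679 and 738 CPM against 1137, 1155, 1358 and 907 CPM, and its call was lost without Ncf1-/- culture 3 (adjusted p = 0.0528) and without TMM factors (adjusted p = 0.114).

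Glycolysis was the list that depended most on 1 library. Of 31 glycolysis and hypoxia-response genes 5 rose and 3 fell with all libraries, and 18 rose without WT culture 12. That culture summed to 11431 CPM over the list, above the 9006 to 10443 CPM of Ncf1-/- cultures, while WT cultures 9 to 11 summed to 4561 to 6327 CPM. Eno1, a glycolytic enolase, was at 1680.1, 1785, 1920.2 and 1946 CPM in Ncf1-/- and 648, 550.1, 952 and 1465 CPM in WT cultures (log2 fold change 1.02 ± 0.24, edgeR adjusted p = 0.0028). For Ldha, which makes lactate, the values were 676, 704, 792 and 771 CPM and 385, 239, 328 and 859 CPM, and for Vegfa, the hypoxia-induced growth factor, 76.2, 76.5, 101 and 62.4 CPM and 47.2, 32.8, 59.9 and 401 CPM. Neither was called (adjusted p = 0.06 and 0.3), and WT culture 12 was the highest of the 8 cultures for both, which were chosen after their values were seen. Without it both were called higher (log2 fold changes 1.18 and 0.73, adjusted p = 4.8e-05 and 0.00898). Car9, a carbonic anhydrase that hypoxia induces, was at 7.8 to 16.1 CPM in Ncf1-/-, at 7.29 CPM in WT culture 12 and at 0.091, 0 and 0.889 CPM in the other WT cultures, so that its log2 fold change of 2.50 ± 0.79 became 4.68 without culture 12. The call of Car9 was lost in DESeq2 (adjusted p = 0.0726) and with only the 8 libraries in the fit (adjusted p = 0.0552). Aldoc, the aldolase of astrocytes, fell 1.88-fold (303 to 396 against 457 to 942 CPM).

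**Figure D5:**
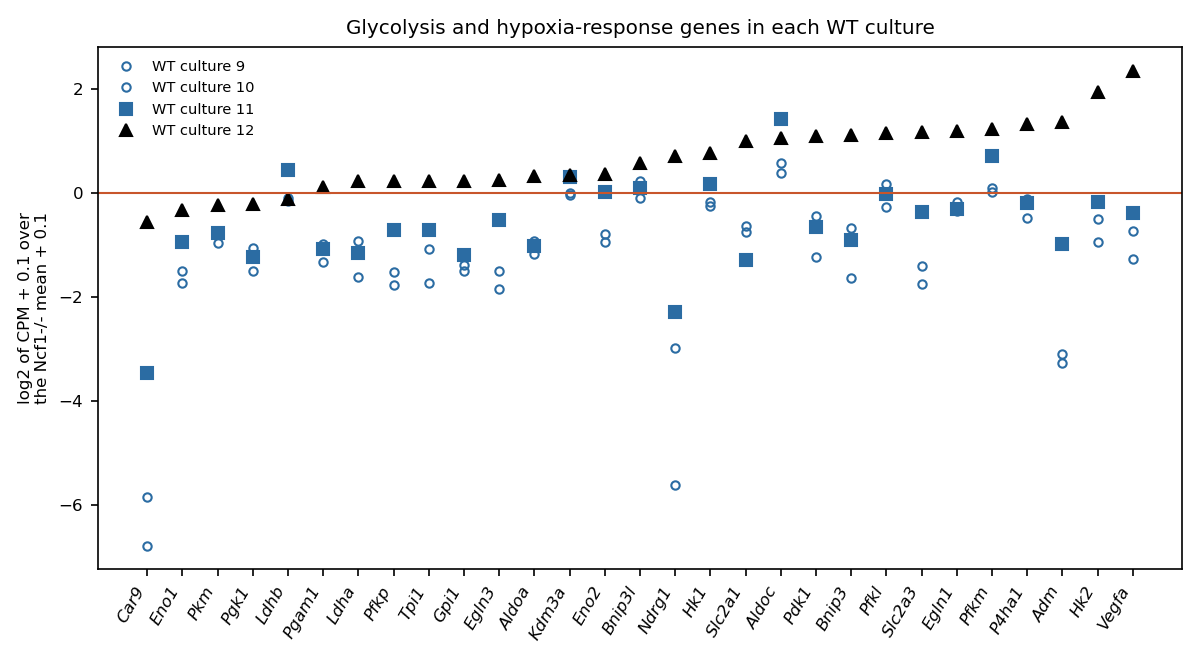
Level of each glycolysis and hypoxia-response gene with a mean of at least 5 CPM in Ncf1-/- in the 4 WT cultures, as log2 of CPM + 0.1 over the Ncf1-/- mean + 0.1 (red line at 0), ordered by WT culture 12. Culture 12 (black triangles) is the highest WT culture for 27 of the 29 genes, and for Vegfa at 401 CPM against 32.8 to 59.9 CPM.

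Lipid synthesis was divided. Of 15 fatty acid synthesis genes 8 fell and 1 rose (median −0.37), and of 25 cholesterol synthesis genes 12 rose and 4 fell (0.24). Scd2, the desaturase of brain lipids, lost 1.83-fold, from 4747, 4958, 4833 and 6697 CPM to 2341, 2731, 2812 and 3734 CPM, and Elovl7, which extends long saturated chains, 20.1-fold (3 to 3.68 against 20.4 to 95.8 CPM). Elovl6 rose 1.49-fold (93.9 to 133 against 68.3 to 77.6 CPM). In the sterol pathway Idi1, an isomerase of its early steps, rose 1.95-fold (87.3 to 112 against 44.5 to 60.3 CPM) and Hsd17b7, of its late steps, fell 1.77-fold (11.6 to 16.5 against 17.1 to 33.1 CPM).

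Of 23 genes of ATF4 targets and serine synthesis, the programme that answers a lack of amino acids, 13 rose and none fell (median 0.60). Mthfd1l, of mitochondrial one-carbon metabolism, rose 3.19-fold, from 12.1, 10.8, 10.6 and 20.4 CPM to 35.8, 43.1, 43 and 50.2 CPM, and Asns, Shmt2 and Mthfd2 by 1.24, 1.16 and 1.19. Atf4 itself rose by 0.40, and its stress targets Ddit3 and Trib3 were not called (log2 fold changes −0.21 and 0.34), whereas without WT culture 12 they were called higher (0.33 and 3.10, adjusted p = 0.0362 and 8.39e-07). Endoplasmic reticulum chaperones went both ways, with 4 of 20 higher and 8 lower (median −0.13), or 6 higher and 3 lower without TMM factors. Pdia6, a disulfide isomerase, rose 1.45-fold (183 to 194 against 119 to 149.6 CPM), and Atf6, a sensor of misfolded protein, fell 1.56-fold (31.7 to 40.5 against 52.5 to 58 CPM).

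Redox enzymes, the genes closest to the known function of Ncf1, went both ways, with more rises. Of 31 antioxidant genes and targets of the transcription factor Nrf2, 12 rose and 3 fell (median 0.22), or 38.7% higher and 9.68% lower. Txn1, thioredoxin, rose 4.91-fold, from 57.9, 59.1, 84.8 and 61.8 CPM to 342, 316, 325 and 309.8 CPM, with no overlap (log2 fold change 2.29 ± 0.12, edgeR adjusted p = 3.8e-08). Its reductase Txnrd1 and the peroxiredoxins Prdx1, Prdx3 and Prdx4 rose by 0.59, 0.49, 0.64 and 1.29. Prdx6, a peroxiredoxin that uses glutathione, fell 1.73-fold, from 417, 479, 901 and 764 CPM to 402, 358, 392 and 332 CPM. Gclc, which makes the first bond of glutathione, fell (log2 fold change −0.54), as did Cat, catalase. Nqo1, an Nrf2 target, and Sod3, the extracellular superoxide dismutase, rose by 1.70 and 2.52. Hmox1 and Gclm, further Nrf2 targets, and Nfe2l2, which encodes Nrf2, were not called (log2 fold changes −0.08, −0.29 and 0.30), and neither were Sod1 and Sod2 (0.17 and −0.01).

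Of 32 interferon response and MHC class I genes 15 rose and 2 fell (median 0.60). Ifitm3, an antiviral membrane protein, rose 4.51-fold, from 5.09, 3.99, 29.9 and 14.4 CPM to 61.9, 59.99, 64.5 and 54.6 CPM, and by 2.96 on the log2 scale without WT culture 11 against 2.14 with it. Tapbp, a peptide-loading factor of MHC class I, fell 1.8-fold (37.3 to 45.3 against 56.8 to 92.8 CPM). The signal transducer Stat2 was not called (log2 fold change −0.13). The summed list was at 519 to 586 CPM in Ncf1-/-, at 282 and 289.9 CPM in WT cultures 9 and 10, and at 565 and 543 CPM in WT cultures 11 and 12, which thus overlapped Ncf1-/-.

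Of 20 imprinted growth-control genes 4 rose and 8 fell (median −0.30), and the falls became 5 without Ncf1-/- culture 3 and 4 without TMM factors. Mest, expressed from the paternal allele in growing tissue, rose 9.73-fold, from 25.8, 35.8, 84 and 40.8 CPM to 357, 444, 441 and 572 CPM (log2 fold change 3.28 ± 0.32, edgeR adjusted p = 2.4e-06), and Peg10 rose by 2.10. Cdkn1c and Meg3, expressed from the maternal allele, fell (log2 fold changes −2.89 and −1.14). Meg3 was not called in voom (adjusted p = 0.0825) or in most fits that left out a culture. Of 27 polycomb and DNA methylation genes 10 rose and 11 fell (median 0.13). Uhrf1, which guides the maintenance methylase to replicated DNA, rose 4.42-fold (121 to 175 against 20.9 to 44.9 CPM), with Dnmt1 and Ezh2 higher by 0.45 and 0.81. Dnmt1 was not called in voom (adjusted p = 0.0614) or in most fits that left out a culture. Pcgf2, of polycomb complex 1, fell 3.89-fold (4.44 to 6.62 against 18.9 to 26.3 CPM), with Dnmt3a, Tet1 and Tet3 lower (log2 fold changes −1.34, −1.19 and −1.05).

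Of 23 immediate early genes 7 rose and 5 fell (median 0.19). Nr4a1, an orphan nuclear receptor, was at 5.75, 5.76, 6.67 and 5.19 CPM against 16.4, 14.9, 7.49 and 27.7 CPM, and Fos and Egr1 fell (log2 fold changes −1.46 and −1.03). Ier3, an early gene with a role in survival, was at 21.7, 27.1, 28.2 and 26.7 CPM against 1.46, 1.67, 10.6 and 18.8 CPM, a rise of 1.67 on the log2 scale that was 2.39 without WT culture 12 and was no longer called with only the 8 libraries in the fit (adjusted p = 0.0523). WT values of these genes spread widely, with Fos, chosen after its values were seen, between 24.5 and 120.4 CPM.

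Over all genes, the 8 with the largest rise among those that averaged 20 CPM or more and whose groups did not overlap were Cd93, Anxa3, Tuba1c, Car3, Nptx2, Lgals1, Igfbp4 and Col18a1. Tuba1c, an alpha-tubulin of dividing cells, was at 50.4, 49.2, 44.2 and 45.4 CPM against 3.23, 1.89, 4.25 and 1.89 CPM, and Nptx2, a secreted pentraxin, at 40.4, 49.7, 43.1 and 52.9 CPM against 2.73, 3.29, 3.53 and 4.62 CPM. For both the WT cultures stayed close together, and the log2 fold changes were 4.01 ± 0.22 and 3.72 ± 0.17. Car3, a carbonic anhydrase, and Lgals1, galectin-1, a lectin of the stem cell niche, depended on WT culture 11. Car3 was at 214, 233, 238 and 259 CPM against 0.773, 0.648, 59.5 and 2.51 CPM, and its log2 fold change of 3.85 ± 1.03 became 7.52 without that culture. Lgals1 was at 513, 494, 487 and 457 CPM against 10.6, 8.53, 115 and 21.9 CPM, with 3.63 on the log2 scale and 5.16 without it. Cd93, a C-type lectin receptor, was at 35.6, 52.6, 52 and 81.8 CPM against 0.637, 0.432, 3.07 and 0.946 CPM (5.28, and 6.37 without WT culture 11).

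The 8 largest falls by the same rule were Mag, Mbp, Tmem163, Cdk18, Enpp6, Fa2h, D430041D05Rik and Bmp4. In the libraries of Ncf1-/- cultures Mag, Tmem163 and Cdk18 were close to the floor, at up to 0.261, 0.265 and 0.218 CPM, against 34.2 to 305, 19.3 to 152 and 22.4 to 154 CPM in WT, so that their fitted changes depend on few counts. Mbp, the basic protein of myelin, still had 2.37 to 3.4 CPM against 327 to 3885 CPM. D430041D05Rik, a gene known only by a clone name, fell 72.2-fold (1.72 to 2.5 against 28 to 247 CPM). In every one of the 8 genes WT culture 11 was the lowest of its group.

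Measured by CPM gained, the 6 leading genes were Ckb, Tmsb4x, Eef1a1, Fabp7, Eno1 and Atp5b. Ckb, the brain creatine kinase, rose from 1696, 1806, 4025 and 2244 CPM to 7141, 6989, 7318 and 6599 CPM, 2.87-fold, and Tmsb4x, which holds actin monomers, from 649.98, 499, 1961 and 827 CPM to 3773, 3414, 3667 and 3531 CPM. Fabp7, a fatty acid-binding protein of radial glia, rose 1.95-fold (2599.6 to 2729 against 988 to 2178 CPM). Eef1a1, the elongation factor of translation, was at 7164 to 7696 CPM against 4504 to 5943 CPM, a call that was lost without WT culture 10 (adjusted p = 0.0682). The 6 genes that lost most were Gm26917, Gfap, Rpph1, Apoe, Mbp and Scd2. Gm26917 fell from 63816, 62747, 45778 and 57833 CPM to 16787, 15328, 16571 and 11642 CPM (3.82-fold), and it lies on chromosome 17 beside a gene annotated as ribosomal RNA. Rpph1, the RNA of ribonuclease P, was at 3966 to 6583 CPM against 6667 to 10907 CPM, a call lost without WT culture 9 (adjusted p = 0.0582).

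The genes that lie beside Ncf1 were also compared. Ncf1 lies at chr5:134220053-134229625, and of the 10 tested genes nearest to it, 5 on each side, 8 were called, beside 57.2% of all genes tested. Castor2 fell 2.65-fold, from 86.9, 100.01, 89.7 and 80.8 CPM to 31.3, 34.2, 30.3 and 39.2 CPM, and Clip2, a microtubule-linking protein, 2.38-fold (104 to 115 against 202 to 299.6 CPM). Rcc1l, of mitochondrial ribosome assembly, rose 1.73-fold (19.997 to 23.3 against 11 to 14.2 CPM). Next to Ncf1 and further toward Clip2 the log2 fold changes were −0.38 for the transcription factor gene Gtf2i (not called without TMM factors, adjusted p = 0.143), 0.23 for Gtf2ird1 and −0.34 for Gtf2ird2, whose annotated span overlaps that of Ncf1. The call of Gtf2ird2 was lost without Ncf1-/- culture 1 or WT culture 11 (adjusted p = 0.0527 and 0.0521). B230377A18Rik overlaps the start of Rcc1l so that reads of the 2 genes cannot be told apart without strand. Its call (log2 fold change 0.76) was lost in 6 of the 8 fits that left out 1 culture (adjusted p up to 0.112), and that of 2700029L08Rik (−0.76) was lost without TMM factors (adjusted p = 0.0524). Gm24139 and Gm43481 were not called (log2 fold changes −0.09 and −0.25).

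Around Igfbp2, 5 of the 10 nearest tested genes on chromosome 1 were called, beside 57.2% of all genes tested. Smarcal1, a helicase that rewinds and restarts replication forks (chr1:72583251-72633134), fell 17.5-fold, from 34.6, 39.99, 42.5 and 35.7 CPM to 2.61, 2.08, 1.9 and 2.13 CPM, with little spread in either group (log2 fold change −4.13 ± 0.12, edgeR adjusted p = 4.3e-10). Tmem169 fell 4.75-fold (1.16 to 1.5 against 3.7 to 7.88 CPM) and Tns1, an adhesion protein tensin, 1.81-fold (55.8 to 59.99 against 79.97 to 135 CPM). Xrcc5 (Ku80), which binds broken DNA ends, rose 1.33-fold (25.6 to 29.2 against 18.5 to 23.6 CPM), and Igfbp5 fell, as given above. March4, Rpl37a, 6030407O03Rik, Rufy4 and Cxcr2 were not called (log2 fold changes −0.39, 0.15, 0.17, 0.61 and −0.08). Without WT culture 12 Rufy4 was called higher (log2 fold change 1.35, adjusted p = 0.037). Both stretches thus held genes that rose and genes that fell, and the sequence of the line around these genes was not measured.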

How the data were processed

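RNA of 8 cultures (4 Ncf1-/- and 4 WT) was compared, with 4 further libraries of Igfbp2-treated Ncf1-/- cultures in the same model. The authors deposited, for each library, RSEM expected counts per gene, not normalized, and TPM made by RSEM. The submitters' processing notes name Bowtie2, RSEM and GRCm38. FPKM values per the file headers were not used. Groups follow the labels.

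The rounded values went into edgeR 4.0.16 in R 4.3.3 (filterByExpr, TMM factors, a mean per group, quasi-likelihood test, Benjamini-Hochberg adjustment over 15706 genes). The share tests are exact permutation tests whose smallest p-value here is 0.0286. No pair of replicates agreed within sampling noise (chi-square per degree of freedom 4.70 to 141). Members and the 57 function lists were chosen with earlier results of these data known. Named genes are 20 fixed genes, the largest rise and fall of each list among called members that averaged 5 CPM or more without overlap, the 8 largest rises and falls that averaged 20 CPM or more, the 12 with the largest CPM difference, and 5 tested neighbours on each side of Ncf1 and Igfbp2. Some genes that may not be named are not reported here. Alternatives were DESeq2 1.42.0, limma 3.58.1 (voom, log2(TPM + 1) and log2(TPM + 0.1)), library totals, other filters, only the 8 libraries, the study's one-way analysis of variance with Tukey comparisons on TPM, and each culture left out. Tested on simulated data for this comparison (15380 genes), edgeR recovered 32 of 67 genes changed 1.5-fold, 60 of 67 changed 2-fold and 66 of 66 changed 4-fold, with 7 false calls. The simulation gave every group the same spread and changed few genes. In the data the coefficient of variation was 0.25 in WT and 0.118 in Ncf1-/-, and 57.2% of genes were called. The simulated rates of recovery and of false calls need not hold for these data. Promoters come from a RefSeq table on GRCm38.p6, and figures were drawn with Python 3.11.15.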

Additional observations from a re-analysis of the deposited data

Results flagged for a closer look

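Of 284 groups of 4 cultures examined over the named genes, 16 (5.63%) held 1 culture whose gap to the nearest of the others was large for the range of the group, where chance gives about 1 in 20. WT culture 11 accounted for 8 of them. It was the highest WT culture for Nes (446.6 CPM, the others 118 to 158.1), Txn1 (84.79 CPM, the others 57.85 to 61.8), Cd24a (114.3 CPM, the others 39.64 to 48.52), Egfr (321.6 CPM, the others 129.8 to 148.2), Car3 (59.55 CPM, the others 0.648 to 2.51) and Lgals1 (115 CPM, the others 8.53 to 21.9). For Tcf7l2 (122.9 CPM, the others 236.2 to 255.9) and Kcnq3 (5.794 CPM, the others 12.51 to 13.75) it was the lowest. In all 8 genes its value lay on the side of the Ncf1-/- cultures.

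WT culture 12 was the highest of its group for Car9 (7.294 CPM, the others 0 to 0.889), Mthfd1l (20.38 CPM, the others 10.58 to 12.14) and Scd2 (6697 CPM, the others 4747 to 4958).

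Within Ncf1-/-, culture 4 was the lowest for Nkd1 (35.18 CPM, the others 38.46 to 38.99) and Hist2h3c2 (392.3 CPM, the others 458.5 to 462.3) and the highest for Cdh19 (44.7 CPM, the others 38.61 to 39.12). Culture 3 was the lowest for Fanca (17.26 CPM, the others 18.56 to 18.72), and culture 2 the highest for Rcc1l (23.32 CPM, the others 20 to 20.47). These 5 gaps are small beside the difference from WT.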

How the results depend on the processing

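Counts of called genes ran from 8254 (without Ncf1-/- culture 3) to 9406 (without WT culture 11) when 1 culture was left out, with 3956 to 4907 higher and 4110 to 4701 lower. Other filters, DESeq2, voom and the fit of 8 libraries gave 7238 to 9029 calls. The study's analysis of variance with Tukey comparisons on TPM called 4859 genes, 2602 higher and 2257 lower, and limma called 2801 lower on log2(TPM + 0.1) and 2863 on log2(TPM + 1). The causes were not tested. Of the named genes, calls were lost for 29 in the analysis of variance, 12 and 11 with log2(TPM + 0.1) and log2(TPM + 1), 6 without TMM factors and 1 to 4 when 1 culture was left out.

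Genes that turned direction were not called with all cultures. Igf2 (−0.07) was 0.032 in DESeq2, 0.079 without TMM factors, 0.75 and 0.098 on log2(TPM + 0.1) and log2(TPM + 1), 0.72 in voom and −0.41 to 1.60 with 1 culture left out. Gm24139 was 0.085 without TMM factors, 0.052, 0.031 and 0.016 in the 3 fits on TPM, and −0.31 to 0.11 with 1 culture left out. March4 was −0.70 (without WT culture 9) to 0.025 (without WT culture 11). On TPM 6030407O03Rik was −0.31, −0.12 and −0.41. Cxcr2 was 0.088 without TMM factors and −0.21 to 0.0033 with 1 culture left out.

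No paired analysis was possible because the Ncf1-/- and WT cultures share no replicate number. The 4 cultures a group and depths of 18216794 to 34086554 counts limit small changes, since fewer than all of the simulated 1.5-fold and 2-fold changes were recovered, and levels at or below a library's floor (0.086 to 0.167 CPM) rest on 3 counts or fewer. WT culture 12 has a doubtful assignment in the study's code, and without it 8844 genes were called (4290 higher and 4554 lower).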

Other observations

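The features in these paragraphs are shown here after their values were seen. Xist, Tsix, CT010467.1 and Gm42418 were picked by no rule. The Y-linked genes form a function list, and Gm26917 was named above among the genes that lost most CPM. Xist, the RNA that coats the inactive X chromosome (GRCm38, chrX:103460366-103483254), was at 72.3 to 87.8 CPM in the 4 Ncf1-/- cultures, at 3.87, 3.89 and 5.22 CPM in WT cultures 9 to 11 and at 290.8 CPM in WT culture 12. The Ncf1-/- cultures therefore held Xist together with 105.3 to 115.5 CPM of the 4 Y-linked genes, while WT cultures 9 to 11 held Y-linked genes at 106.8 to 118.3 CPM with little Xist, and WT culture 12 held Xist with 6.46 CPM of Y-linked genes. In the 4 Igfbp2-treated Ncf1-/- libraries, Xist was at 165.7 to 274.6 CPM and the Y-linked genes at 7.80 to 9.18 CPM. Tsix, which is transcribed from the opposite strand of Xist, was at 0 in WT cultures 9 to 11 and at most at 0.305 CPM in Ncf1-/- cultures, and whether the counting used strand is not given in the sources used here.

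Counts of annotated ribosomal RNA differed between single libraries, and those of Gm26917 beside it differed between the groups. CT010467.1, annotated as ribosomal RNA (chr17:39846353-39848827), was at 28229 CPM in Ncf1-/- culture 1 (3.03% of its counts), at 8.57 to 36.7 CPM in the other Ncf1-/- cultures, at 1803 CPM in WT culture 9 and at 68.2 to 77.9 CPM in the other WT cultures. Gm26917, which ends close to it on the same chromosome (chr17:39843013-39846341), took 1.31 to 1.83% of counts in Ncf1-/- and 4.68 to 6.12% in WT. Gm42418, whose span lies within that of CT010467.1, was at 9051 to 14050 CPM in WT. It was at 13070 CPM in Ncf1-/- culture 1 and at 3096 to 4822 CPM in the other Ncf1-/- cultures.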
